A study of Xenopus laevis with 16 samples.

Results

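The genes described here encode the contractile filaments of striated muscle and their closest relatives: troponins, myosin heavy and light chains, tropomyosins, alpha-actinins and a set of other sarcomere proteins. Members were the array probe sets annotated with exactly 1 gene symbol of the troponin C, I or T, myosin heavy or light chain, tropomyosin, alpha-actinin, myosin-binding protein C, myozenin or myomesin families, or of acta1, actc1, des.1, tcap, ldb3, klhl41, smyd1, mylpf or mustn1. This rule used names only and no measured value. It found 69 probe sets for 54 gene symbols among 15491 non-control probe sets, of which 9304 carried 1 symbol. Xenopus laevis keeps a pair of subgenomes, marked L and S at the end of a symbol, and without that ending the members are 40 genes. By textbook roles, mostly established in mammals, 48 probe sets are sarcomeric, 15 belong to non-muscle or smooth muscle relatives, and 6 (tpm1, tpm2, tpm3 and mustn1) were kept apart as mixed because those genes are used in several tissues.

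Total RNA came from hindlimbs of Xenopus laevis tadpoles amputated, on 1 or both sides, through the middle of the zeugopodium, the lower leg segment. At stage 53 the limb is described by the submitters as able to regenerate and at stage 57 as unable. The sampled tissue lay 1 mm proximal to the cut and was taken after 1 day or 5 days, so the 2 stages and 2 times make 4 groups, with 4 arrays in each. No transgene or drug appears in the labels, all groups were amputated, and uncut limbs were not analysed here. A stage difference that existed before amputation and one that arose after it therefore cannot be told apart. Running codes in the array titles are lower for every stage 53 array than for every stage 57 array, so the order of the codes and the stage cannot be told apart either. Within each stage the codes are lower for every 1 day array than for every 5 day array. The order of the codes and the day therefore cannot be told apart within a stage.

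In striated muscle, myosin heavy chains with their light chains form the thick filament, and actin with tropomyosin and the troponin complex forms the thin filament. Calcium binding to troponin C shifts tropomyosin and lets myosin pull on actin, and the Z-disc, built around alpha-actinin, anchors the thin filaments of neighbouring sarcomeres. Fast and slow fibres, heart and embryonic muscle use different members of these families, whereas non-muscle myosins and actinins work in the cytoskeleton of most cells.

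Levels are log2 MAS5 signals, and every difference is on that log2 scale unless a fold is named. Levels of different probe sets are not compared, because probes differ in brightness. Where a probe set is called the brightest of its role, it was picked as the best measured one, with nothing said about the abundance of its RNA. A probe set was tested when its mean over all 16 arrays lay above the 25th percentile, a log2 signal of 6.60. That left 11618 probe sets in all and 50 of the 69 members: 32 sarcomeric, 6 mixed and 12 non-muscle. A call is a Benjamini-Hochberg adjusted p below 0.05 in the limma fit over all 11618. The labels do not state that replicates were separate animals, so a p-value here reflects the variation among these arrays and perhaps not that among animals.

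Arrays of a group correlated at 0.767 to 0.955, with a median of 0.923. On 3 stage 57 arrays the 3′ beta-actin control probe set exceeded the 5′ one by far more than on the others: by 4.70 and 4.76 in replicates 2 and 3 at 1 day, and by 5.72 in replicate 2 at 5 days. The range on the other 13 arrays was 0.01 to 2.38. Such a ratio is a usual sign of shortened or incompletely copied RNA. Among stage 57 arrays at 5 days, replicate 2 read below its group's other arrays for 23 of the 32 tested sarcomeric probe sets (71.9%), against 38.8% of all tested probe sets. At 1 day, replicates 2 and 3 were both below the other pair for 8 of the 32, against 27.6% of all. Results for members are therefore also given without these 3 arrays where that changes a call or moves a named value by over 1.5 times. For the other genes counted from lists below, no result without the 3 arrays is given.

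Sarcomeric genes were lower at stage 53 than at stage 57 on both days. At 1 day 24 of the 32 tested probe sets were lower, 0 were higher and 8 did not pass, while 1.56% of all tested probe sets were lower and 0.99% higher. At 5 days 23 were lower, 0 were higher and 9 did not pass, against 3.89% lower and 3.48% higher among all. The calls covered 22 gene symbols at 1 day and 21 at 5 days, and 21 probe sets were called on both days. In bulk tissue, fewer muscle cells and less of these RNAs per cell cannot be told apart.

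The filter bears on these counts, since a gene that is bright only at stage 57 can pass through that stage alone. The stage 53 mean was at or below the filter level for 11 of the 24 probe sets called at 1 day and for 6 of the 23 called at 5 days, so their folds reach into dim signal. Among the 11 at 1 day were des.1.S, tnnc1.L and myl3.L, described below. With no filter, all 48 sarcomeric members were tested and 25 were lower at 1 day (1.13% of all 15491 probe sets) and 24 at 5 days (2.7% of all). The median difference over all 48 was -2.59 at 1 day and -2.09 at 5 days, and over all 15491 probe sets it was -0.04 and 0.11. On 29 of the 48 every stage 53 array lay below every stage 57 array at 1 day, as did 3.97% of all probe sets. The count was 26 at 5 days, against 6.07% of all.

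Per array, the median signal of the 48 sarcomeric probe sets separated the stages. At stage 53 it was 6.69, 6.24, 5.51 and 6.26 at 1 day and 6.44, 6.62, 6.75 and 7.32 at 5 days. At stage 57 it was 9.47, 8.04, 9.11 and 8.47 at 1 day and 9.98, 8.34, 8.59 and 9.15 at 5 days. The lowest stage 57 arrays, replicate 2 on either day, still lay above the highest stage 53 array. The same median over the 15 non-muscle members stayed between 10.06 and 11.05 on all 16 arrays.

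**Figure D1:**
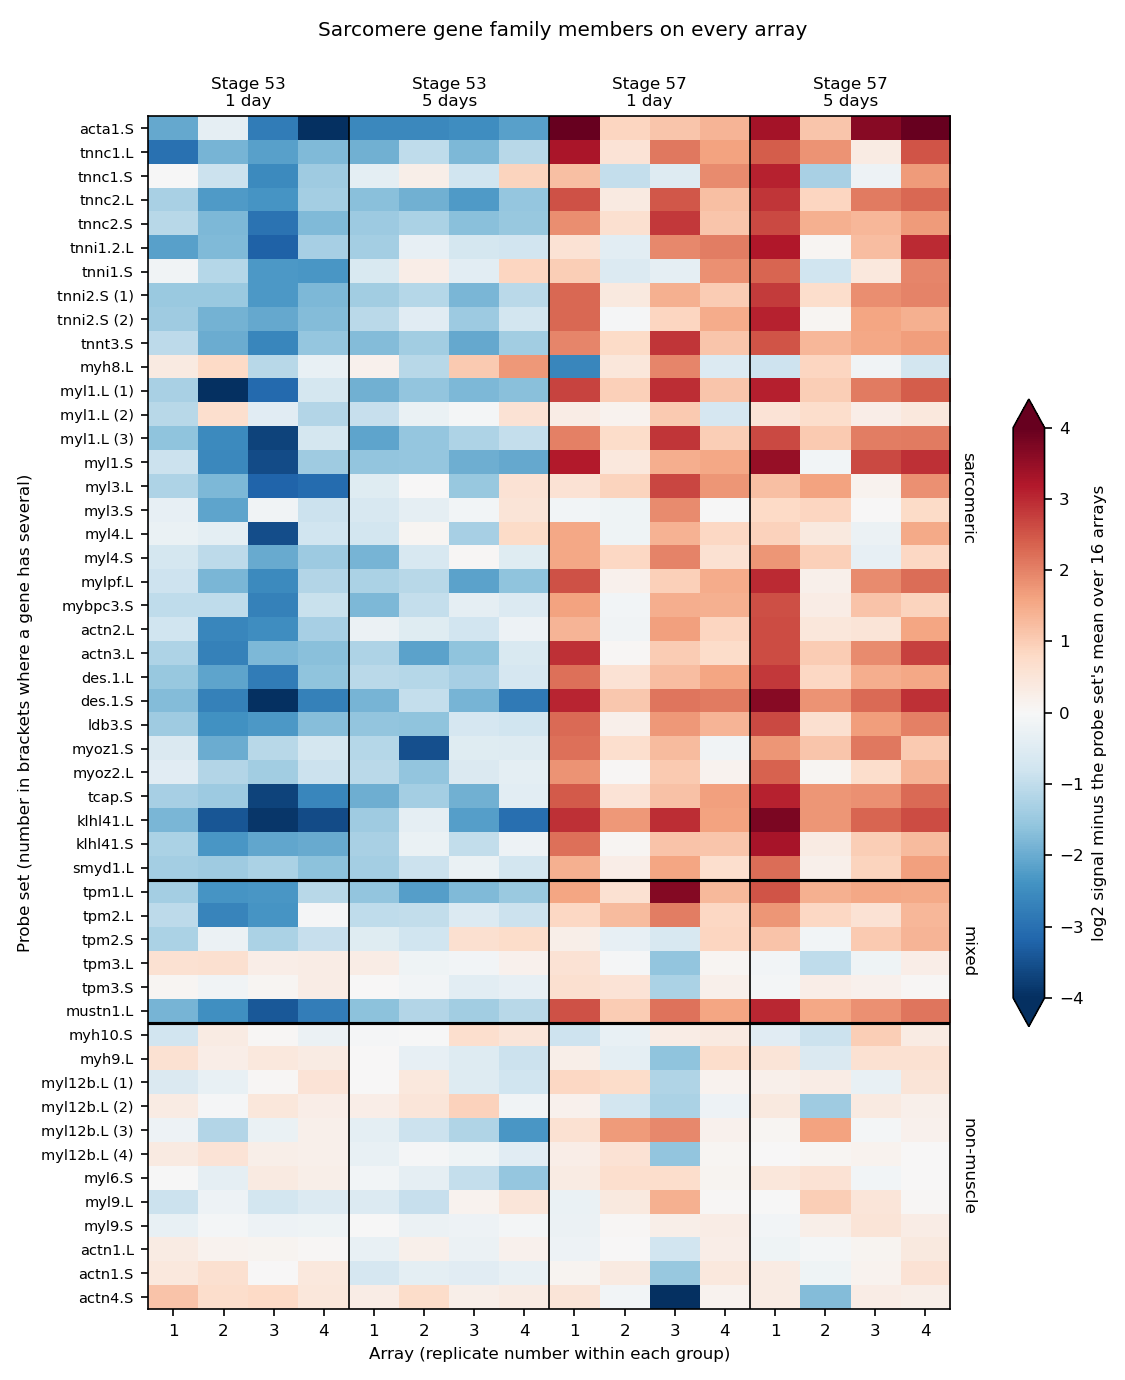
Each row is 1 of the 50 tested probe sets and each column 1 of the 16 arrays, coloured by log2 signal minus the probe set's mean over all arrays (blue below, red above, limits at 4). Most of the 32 sarcomeric rows are blue on the stage 53 arrays and red on the stage 57 arrays, and the 12 non-muscle rows show no such block.

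Skeletal alpha-actin, the main actin of the thin filament, was represented by acta1.S. Its signal 1 day after amputation was 7.04, 8.74, 6.28 and 4.55 on the stage 53 arrays and 13.18, 9.94, 10.20 and 10.43 on the stage 57 arrays. At 5 days the values were 6.50, 6.52, 6.61 and 6.92 against 12.43, 10.19, 12.73 and 13.17. Stage 53 lay below stage 57 on every array at both days, with the stage 53 arrays at 5 days close together and the stage 57 arrays spread widely. acta1.S was lower at stage 53 by 19.5-fold at 1 day (difference -4.29, SE 0.81, adjusted p = 0.00819, limma) and by 45.1-fold at 5 days (-5.49, SE 0.81, adjusted p = 0.00059). Without the 3 arrays the differences were -5.16 and -6.14. Without replicate 1 of stage 57 at 1 day, the brightest of its group, the 1 day difference was -3.54 (adjusted p = 0.0238).

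The array also carries 2 alpha-actin controls, named a1Act and a3Act, each with probe sets at the 3′ end, the middle and the 5′ end of the transcript. They were outside the fit and were compared by exact two-sided permutation tests, 12 in all, for which the smallest p that 4 against 4 arrays allow is 0.0286. The 3′ probe set of a1Act read 10.28 ± 0.57 at stage 53 and 13.10 ± 0.78 at stage 57 at 1 day (SD, n = 4), and 10.65 ± 0.40 against 13.28 ± 0.40 at 5 days. The 3′ probe set of a3Act read 12.55 ± 0.51 against 14.70 ± 0.57 at 1 day and 12.67 ± 0.27 against 14.90 ± 0.33 at 5 days (SD, n = 4). Each of these 4 comparisons showed no overlap and reached the smallest exact p, 0.0286, which was 0.0857 after Benjamini-Hochberg adjustment and so did not pass. None of the 4 could have given a smaller p, so the adjusted value could be lower only if others of the 12 tests had given smaller p-values.

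The middle probe sets of these controls gave smaller differences, -1.13 and -1.14 for a1Act and -1.23 and -1.64 for a3Act at 1 and 5 days (smallest exact permutation p = 0.314). At the 5′ end the differences were -1.08 and -1.26 for a1Act and -2.62 and -1.48 for a3Act (smallest exact permutation p = 0.0571). On the 3 arrays with a high beta-actin ratio the middle of a3Act read 7.11, 8.34 and 6.18, below the other stage 57 arrays, which ran from 10.84 to 13.09. Without those arrays the middle differences were -2.80 and -2.22 for a1Act and -3.34 and -3.09 for a3Act. Where along its transcript each member's probes lie was not known here, so the part of these 3 arrays in the members' values was tested only by leaving them out.

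**Figure D2:**
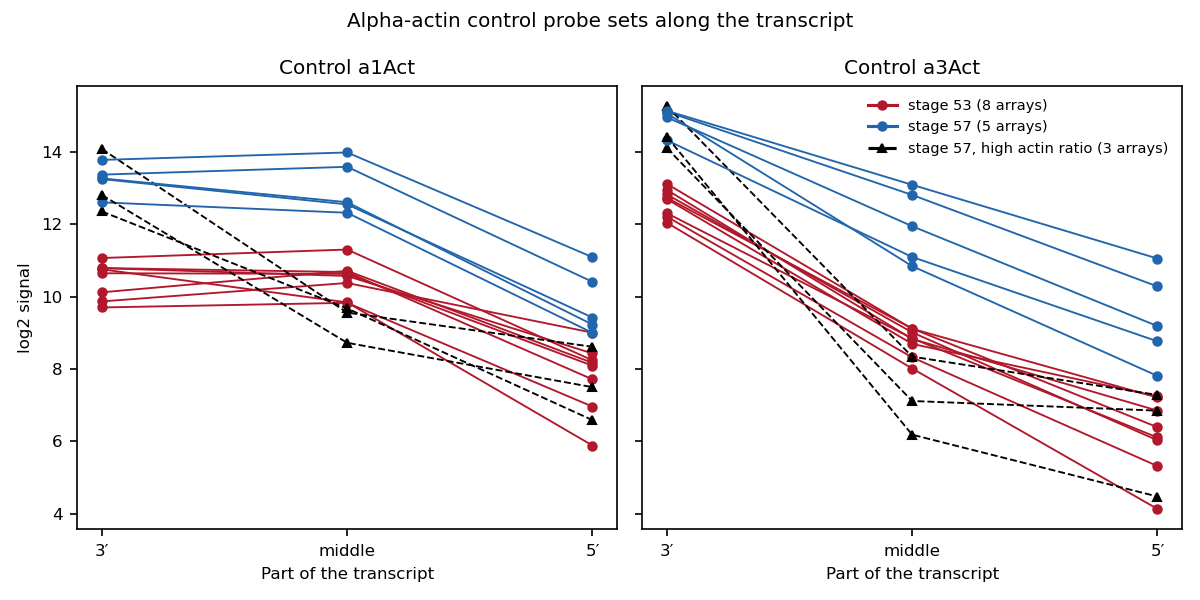
Log2 signal of the 3′, middle and 5′ probe sets of the alpha-actin controls a1Act (left) and a3Act (right), with 1 line per array. At the 3′ end all 8 stage 57 arrays lie above all 8 stage 53 arrays, and the dashed lines of the 3 stage 57 arrays with a high beta-actin ratio drop to or below the stage 53 lines in the middle.

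Troponins make up the calcium switch of the thin filament, and 9 of their 12 probe sets were tested. At each day 7 of the 9 were lower at stage 53 and 0 were higher. The fast troponin T gene tnnt3.S, which ties the complex to tropomyosin, gave the brightest troponin probe set. Its signal at 1 day was 10.60, 9.66, 9.05 and 10.08 at stage 53 and 13.60, 12.41, 14.51 and 12.77 at stage 57. At 5 days the stage 53 arrays read 9.90, 10.25, 9.59 and 10.24 and the stage 57 arrays 14.17, 12.96, 13.20 and 13.32. No array of one stage reached the range of the other on either day. The difference was -3.47 at 1 day (SE 0.42, adjusted p = 0.000333) and -3.42 at 5 days (SE 0.42, adjusted p = 0.000152), or 11.1-fold and 10.7-fold.

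Fast troponin C, the calcium sensor, was measured by tnnc2.L and tnnc2.S. For tnnc2.L the stage 53 arrays read 8.66, 7.70, 7.59 and 8.58 at 1 day, and the stage 57 arrays 12.50, 10.30, 12.43 and 11.16. The 5 day arrays read 8.30, 8.04, 7.69 and 8.41 against 12.82, 10.80, 12.02 and 12.24. The stages did not overlap, and replicate 2 was the lowest stage 57 array on both days. tnnc2.L was lower by 11.1-fold at 1 day (-3.47, SE 0.48, adjusted p = 0.000656) and by 14.6-fold at 5 days (-3.86, SE 0.48, adjusted p = 0.000152). Its S partner gave -3.53 and -3.24, both called.

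Fast troponin I, the inhibitory subunit, had a pair of probe sets for tnni2.S, and both were lower on both days (-3.05 and -2.92 at 1 day, -3.19 and -2.49 at 5 days). Among the slow forms, tnnc1.L, the slow and cardiac troponin C, was lower by 16.8-fold at 1 day (-4.07) and 9.34-fold at 5 days (-3.22). The slow troponin I gene tnni1.2.L differed by -3.15 at 1 day (adjusted p = 0.0147) and by -2.66 at 5 days (adjusted p = 0.0206), both called. The other slow probe sets did not pass: tnnc1.S differed by -1.62 and -0.84, and tnni1.S by -1.95 and -0.94. Without the 3 arrays tnni1.S was called at 1 day, with -2.89 (adjusted p = 0.0207), and not at 5 days, with -1.53 (adjusted p = 0.0697). Under the same omission tnnc1.S reached -2.76 and -1.55 and was not called. The cardiac forms tnni3.L, tnni3.S and tnnt2.L fell below the filter, with no array above a log2 signal of 7.38.

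Tropomyosin lies along actin and is moved by troponin, and its genes also make non-muscle isoforms. tpm1.L was lower at stage 53 on both days, at 8.83 ± 0.65 against 12.40 ± 1.32 at stage 57 after 1 day and at 8.86 ± 0.32 against 12.36 ± 0.51 after 5 days (SD, n = 4). These are differences of -3.57 (adjusted p = 0.000754) and -3.49 (adjusted p = 0.000474). tpm2.L was also lower, with -2.76 at 1 day (adjusted p = 0.0066) and -1.98 at 5 days (adjusted p = 0.025). Its stage 53 means lay below the filter level on both days, and without the 3 arrays tpm2.L was not tested. tpm2.S (-0.95 and -0.84), tpm3.L (0.70 and 0.30) and tpm3.S (0.04 and -0.31) did not pass on either day. Without the 3 arrays tpm2.S differed by -1.46 and -1.16 and passed at 5 days (adjusted p = 0.0458), as it did with array weights (adjusted p = 0.0233). Under the same omission tpm3.L differed by 0.13 and 0.04 and tpm3.S by -0.34 and -0.26, and none of these passed. Together with mustn1.L, a small nuclear protein of muscle and skeletal tissue, 3 of the 6 mixed members were lower on each day.

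mustn1.L had the smallest adjusted p of any member at 1 day. It read 7.60 ± 0.65 at stage 53 and 12.03 ± 0.67 at stage 57 after 1 day, and 8.87 ± 0.24 against 12.34 ± 0.63 after 5 days (SD, n = 4). That is a difference of -4.44 (SE 0.38, 21.7-fold, adjusted p = 2.28e-05) at 1 day and -3.46 (SE 0.38, adjusted p = 9.57e-05) at 5 days.

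Myosin light chains stabilise the lever arm of myosin. Of 9 sarcomeric probe sets, all tested, 6 were lower at stage 53 at 1 day and 4 at 5 days. The 4 called at 5 days were all fast: myl1.S (-4.02), the regulatory chain mylpf.L (-3.37) and a pair of the 3 probe sets of myl1.L (-3.88 and -3.42). Each of them was also called at 1 day, with differences of -3.75, -2.89, -4.27 and -3.79. The remaining myl1.L probe set differed by -0.71 (-0.32 without the 3 arrays) and -0.65 and was not called, so the probe sets of this gene disagree. Which transcripts each of them reads was not known here.

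The embryonic and atrial light chain gene myl4.S was the brightest sarcomeric light chain probe set. At 1 day it read 10.07, 9.73, 8.77 and 9.34 at stage 53 and 12.32, 11.61, 12.76 and 11.38 at stage 57. By 5 days the values were 8.90, 10.14, 10.82 and 10.30 against 12.54, 11.74, 10.46 and 11.59. The stages were apart at 1 day and overlapped at 5 days, where replicate 3 of stage 57 fell among the stage 53 arrays. The difference passed at 1 day (-2.54, SE 0.47, adjusted p = 0.00654) and not at 5 days (-1.54, SE 0.47, adjusted p = 0.0537). Without that replicate 3 the 5 day difference was -1.92 (adjusted p = 0.0305). Without the 3 arrays with a high beta-actin ratio it was -1.49 and was not called (adjusted p = 0.0502). Of 26 alternatives, 5 called it.

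myl3.L, a slow and ventricular light chain, had the smallest adjusted p among the light chains. Its stage 53 signal was 6.71, 6.15, 4.75 and 4.89 at 1 day and 7.48, 7.98, 6.45 and 8.55 at 5 days. At stage 57 it was 8.54, 8.86, 10.64 and 9.73 at 1 day and 9.16, 9.58, 8.10 and 9.80 at 5 days. The stages were apart at 1 day, and at 5 days the highest stage 53 array passed the lowest stage 57 array. The difference was -3.82 at 1 day (SE 0.57, 14.1-fold, adjusted p = 0.00119) and -1.55 at 5 days (SE 0.57, adjusted p = 0.11). The change of the stage difference between the days, 2.27, had an unadjusted p of 0.0117 in the limma fit and an adjusted p of 0.997, so it did not pass. myl3.S (-1.26 and -0.75) and myl4.L (-2.14 and -0.95) were not called on either day.

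Sarcomeric myosin heavy chains, the motors themselves, were mostly too dim to test. Of 12 probe sets for myh3.S, myh6.S, myh8.L and myh15.L, 1 passed the filter. Genes of the adult fast and slow heavy chains (myh1, myh2, myh4, myh7) were not among the members, so they were not analysed here. The tested probe set, 1 of 3 for the perinatal gene myh8.L, read 7.01, 7.45, 5.53 and 6.34 at stage 53 and 4.04, 7.09, 8.61 and 6.09 at stage 57 at 1 day. The 5 day values were 6.82, 5.55, 7.70 and 8.39 against 5.81, 7.51, 6.50 and 5.92. The stages overlapped fully, and neither difference passed (0.13 and 0.68, SE 0.81, adjusted p = 0.946 and 0.662).

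Across the 12 heavy chain probe sets, group means ran from 1.68 to 6.58 at stage 53 and 1 day, 2.49 to 7.11 at stage 53 and 5 days, 3.76 to 8.05 at stage 57 and 1 day, and 3.49 to 7.55 at stage 57 and 5 days. myh6.S, the alpha cardiac heavy chain of mammals, had 5 probe sets. One of them read 4.45 ± 1.09 at stage 53 and 8.05 ± 0.92 at stage 57 at 1 day, and 4.91 ± 1.15 against 7.55 ± 1.01 at 5 days (SD, n = 4). Its arrays did not overlap on either day, and it was called when no filter was applied (adjusted p = 0.00859 at 1 day and 0.0322 at 5 days, limma). The other 4 probe sets of myh6.S, with means of 3.25 to 5.62 over all arrays, overlapped between the stages.

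mybpc3.S, the cardiac form of myosin-binding protein C in mammals, links thick and thin filaments. At 1 day it read 7.18, 7.18, 5.49 and 7.29 at stage 53 and 9.80, 8.09, 9.65 and 9.62 at stage 57. The 5 day values were 6.40, 7.25, 7.84 and 7.66 against 10.77, 8.51, 9.34 and 9.09. The stages did not overlap, and replicate 2 was the lowest stage 57 array on both days. mybpc3.S was lower by 5.67-fold at 1 day (-2.50, SE 0.53, adjusted p = 0.0169) and was also lower at 5 days (-2.14, SE 0.53, adjusted p = 0.0211). Leaving out the lowest stage 53 array at 1 day, replicate 3, ended the 1 day call (-2.07, adjusted p = 0.0671). Leaving out any of replicates 1 and 2 of stage 53 or 1 and 3 of stage 57 at 5 days ended the 5 day call, with adjusted p of 0.0514 to 0.06.

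Z-disc and intermediate filament genes gave 8 tested probe sets of 10, and 6 were lower at 1 day and 7 at 5 days. des.1.S, a desmin gene of the filaments that link neighbouring Z-discs, was the brightest of them. Its signal at 1 day was 7.66, 6.68, 5.07 and 6.70 at stage 53 and 12.45, 10.47, 11.53 and 11.46 at stage 57. At 5 days the values were 7.54, 8.44, 7.55 and 6.56 against 13.05, 11.20, 11.65 and 12.30. A gap of over 2 log2 units separated the stages on both days. des.1.S was lower by 31.0-fold at 1 day (-4.95, SE 0.55, adjusted p = 0.000239) and by 23.1-fold at 5 days (-4.53, SE 0.55, adjusted p = 0.000152). des.1.L followed with -3.40 and -2.71.

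tcap.S, the titin cap protein, differed by -3.72 and -3.66, and ldb3.S, which binds alpha-actinin at the Z-disc, by -3.36 and -2.91 at 1 and 5 days, all called. Of the sarcomeric alpha-actinins, the fast form actn3.L differed by -3.04 and -3.47, both called. actn2.L, the form of heart and of all fibres in mammals and counted here with the slow and cardiac genes, passed at 1 day (-2.74, adjusted p = 0.00888) and not at 5 days (-1.72, adjusted p = 0.0557). Its arrays were apart on both days, and without the 3 arrays it was called at 5 days (-2.00, adjusted p = 0.0141). The calcineurin-binding myozenins myoz1.S (-2.10, then -2.93) and myoz2.L (-1.72, then -2.03) passed at 5 days and not at 1 day. actn2.S and myoz2.S were below the filter, and with no filter applied neither was called on either day. actn2.S differed by -2.64 and -3.01 (adjusted p = 0.182 and 0.0677, limma), with arrays that stood barely apart on both days. The differences of myoz2.S were -1.64 and 0.54 (adjusted p = 0.413 and 0.822).

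Genes of sarcomere assembly, klhl41.L, klhl41.S and smyd1.L, were all lower at stage 53 on both days. klhl41 is a kelch protein that stabilises thin filament proteins, and smyd1 a methyltransferase that works with myosin chaperones. klhl41.S, the brightest of the 3, read 7.07, 5.99, 6.25 and 6.32 at stage 53 and 10.53, 8.39, 9.47 and 9.44 at stage 57 at 1 day. The 5 day arrays read 7.01, 8.06, 7.35 and 8.10 against 11.63, 8.64, 9.29 and 9.59. The stages were apart at both days, though narrowly at 5 days.

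klhl41.L had the largest stage difference of any tested member at 1 day. Its arrays read 4.79, 3.19, 2.72 and 3.04 at stage 53 and 9.54, 8.34, 9.57 and 8.23 at stage 57. The 5 day arrays read 5.20, 6.26, 4.41 and 3.61 against 10.37, 8.39, 8.93 and 9.21. Every stage 53 array lay below the filter level, so the folds of 44.9 at 1 day (-5.49, SE 0.62, adjusted p = 0.000239) and 20.5 at 5 days (-4.35, SE 0.62, adjusted p = 0.000399) rest on dim signals. Its mean over all arrays, 6.61, passed the filter narrowly, and without the 3 arrays it was not tested. klhl41.S differed by -3.05 (8.29-fold, adjusted p = 0.00522) and -2.15 (4.45-fold, adjusted p = 0.023), and smyd1.L by -2.40 and -2.05.

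**Figure D3:**
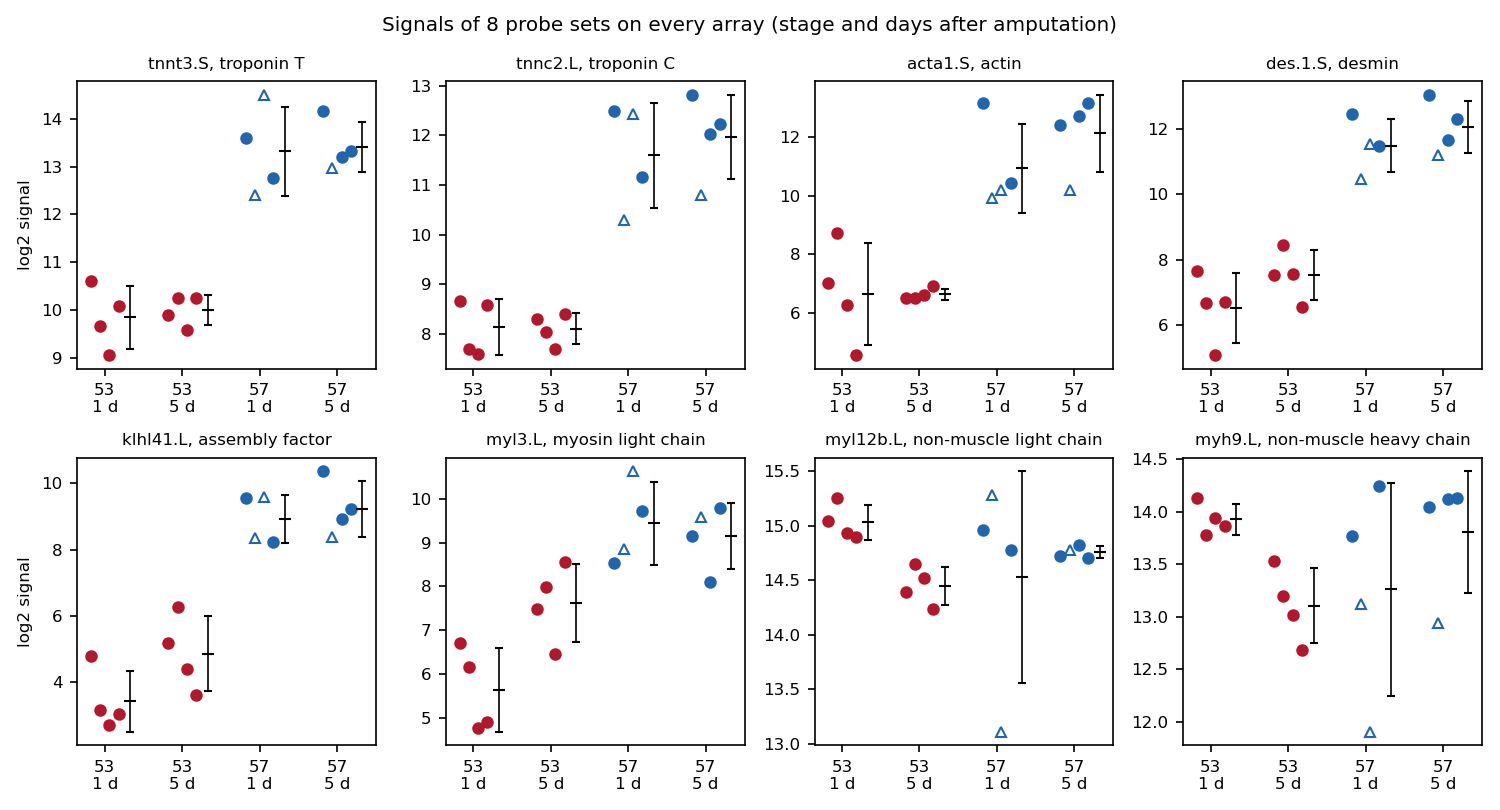
Log2 signal of 8 probe sets on every array, by stage and days after amputation, with group mean and SD beside the points and open triangles for the 3 stage 57 arrays with a high beta-actin ratio. The upper row and klhl41.L show stages that do not overlap, myl3.L overlaps at 5 days, and myl12b.L and myh9.L show no called stage difference.

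Several genes were represented by both subgenomes, and the partners did not always give the same size. At 1 day the L and S differences were -5.49 and -3.05 for klhl41, -3.40 and -4.95 for des.1, -3.47 and -3.53 for tnnc2, -4.07 and -1.62 for tnnc1, -3.82 and -1.26 for myl3, -2.14 and -2.54 for myl4 and -2.76 and -0.95 for tpm2. For tnnc1, myl3 and tpm2 the L probe set was called and the S probe set was not, for myl4 the S probe set was called and the L probe set was not, and the difference between partners was not tested. Whether a probe set also binds its partner's RNA was not known here.

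Fast-fibre genes made up 12 tested probe sets, of which 10 were lower at 1 day and 11 at 5 days, with median differences of -3.26 and -3.39. Slow or slow and cardiac genes had 10 probe sets with 8 tested, of which 4 were lower at 1 day and 3 at 5 days. Their medians over all 10 were -2.29 and -1.63. The difference between fast and slow genes was not tested.

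Of the non-muscle and smooth muscle relatives, 12 probe sets were tested, and limma called 0 of them at 1 day (2.55% of all in either direction) and 0 at 5 days (7.37% of all). At an unadjusted p below 0.05 the counts were 3 and 2, for which the share of all probe sets is not given here. The median over all 15 was -0.19 at 1 day and -0.40 at 5 days. Every stage 53 array lay below every stage 57 array for 0 of the 15 at 1 day and for 5 of the 15 at 5 days, against the 3.97% and 6.07% of all probe sets given above. The 5 were myl6.S, actn1.S, myh11.S and a pair of the myl12b.L probe sets. myl12b.L, a regulatory light chain of non-muscle myosin, had 4 probe sets, and the brightest read 15.05, 15.25, 14.93 and 14.90 at stage 53 and 14.96, 15.28, 13.11 and 14.78 at stage 57 at 1 day. The 5 day arrays read 14.40, 14.65, 14.52 and 14.24 against 14.72, 14.78, 14.82 and 14.71. The stages overlapped at 1 day and stood narrowly apart at 5 days, and neither difference passed (0.50 and -0.31, SE 0.34, adjusted p = 0.418 and 0.63). Replicate 3 of stage 57, at 13.11, lay apart at 1 day, and without the 3 arrays that difference was 0.16.

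myh9.L, the heavy chain of non-muscle myosin IIA, read 14.13, 13.78, 13.94 and 13.87 at stage 53 and 13.77, 13.12, 11.90 and 14.24 at stage 57 at 1 day. At 5 days it read 13.53, 13.20, 13.02 and 12.68 against 14.05, 12.94, 14.12 and 14.13. The stages overlapped on both days, and the 3 lowest stage 57 values came from the 3 arrays with a high beta-actin ratio. The differences were 0.67 and -0.70 (SE 0.40, adjusted p = 0.37 and 0.321). Without those arrays they were -0.08 at 1 day, not called, and -0.99 at 5 days, which was called (SE 0.189, adjusted p = 0.00287, limma). Leaving out only replicate 2 of stage 57 at 5 days gave the same -0.99 without a call (SE 0.396, adjusted p = 0.159). The 1 day arrays enter the 5 day comparison only through the spread that the fit shares among groups.

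myl6.S, the essential light chain of non-muscle and smooth muscle myosin, read 12.69, 12.33, 13.05 and 12.93 at stage 53 and 13.03, 13.36, 13.39 and 12.81 at stage 57 at 1 day. At 5 days it read 12.58, 12.33, 11.74 and 11.15 against 13.14, 13.26, 12.59 and 12.72. The stages overlapped at 1 day and stood barely apart at 5 days, and neither difference passed (-0.39 and -0.98, SE 0.30, adjusted p = 0.473 and 0.0575). Without the 3 arrays the 1 day difference was -0.165. The other tested members were myl9.L, myl9.S, actn1.L, actn1.S, actn4.S, myh10.S and 3 more probe sets of myl12b.L. Their differences ran from -1.46 for the second brightest probe set of myl12b.L to 1.73 for actn4.S at 1 day, and from -1.64 to 0.61 for the same pair at 5 days. actn4.S read 6.23 on replicate 3 of stage 57 at 1 day and 10.44 to 11.07 on the other arrays of that group. Without the 3 arrays the differences of the 12 ran from -0.76 to 0.45 at 1 day and from -1.24 to 0.10 at 5 days, between the same pair. Without the 3 arrays, 0 of the 12 were called at 1 day and 3 at 5 days (myh9.L, actn1.S with -0.81, and the second brightest probe set of myl12b.L with -1.24), while 7.54% of all probe sets were then lower at 5 days.

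Leaving out the 3 arrays left 29 sarcomeric probe sets above the filter. Stage 57 then had 2 arrays at 1 day and 3 at 5 days. Of the 29 probe sets, 24 were lower at 1 day (1.44% of all) and 23 at 5 days (7.54% of all). Of these, 23 and 22 were also called with all arrays. The difference was larger in size without the 3 arrays for 22 of the 29 at 1 day and 25 of the 29 at 5 days. The share of all probe sets with a larger difference is not given here.

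**Figure D4:**
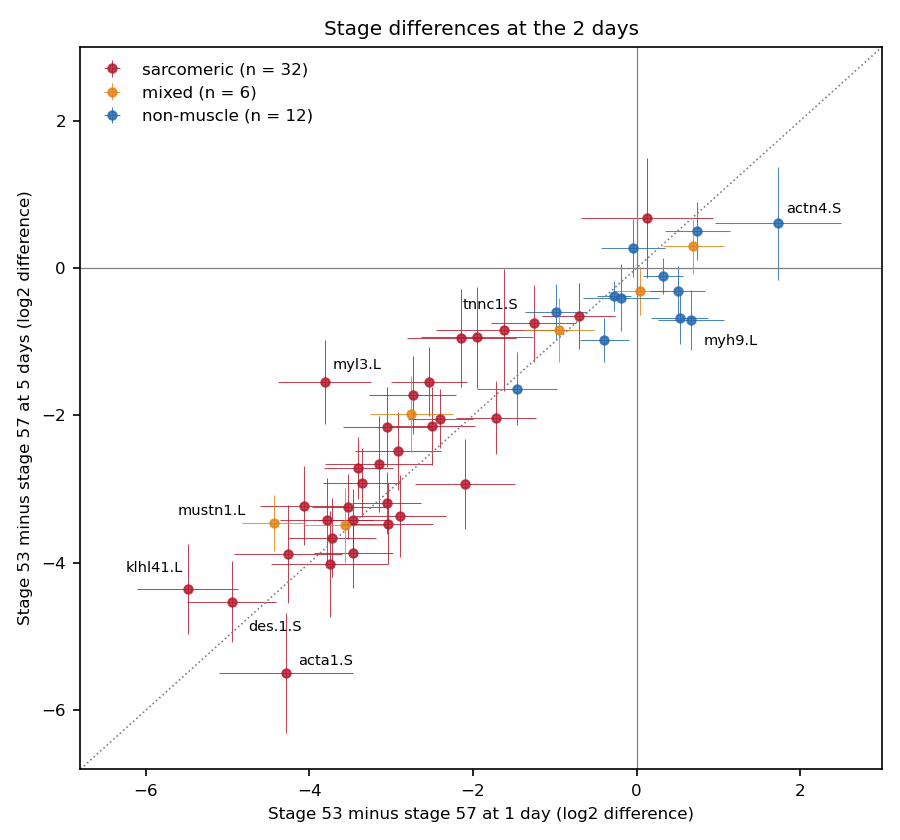
Stage 53 minus stage 57 log2 difference at 1 day (x) and at 5 days (y) for the 50 tested probe sets, with bars of 1 SE from the limma fit and a dotted line of equal differences. The sarcomeric points lie mostly between -1 and -6 on both axes, and the non-muscle points scatter between -1.64 and 1.73.

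From 1 to 5 days, 0 of the 32 sarcomeric probe sets were called at either stage, and 0 in the test of whether the day change differed between stages. The limma background was 0.121% of all probe sets at stage 53, 0 at stage 57 and 0.0258% for the difference of changes. At an unadjusted p below 0.05 the counts were 6 at stage 53, 0 at stage 57 and 1 for the difference. The share of all probe sets at that unadjusted threshold is not given here, so these counts have no background to be read against. At stage 53, 29 of the 32 estimates were positive, with a median of 0.60 over all 48 members against 0.12 over all probe sets. At stage 57 the median was 0.26 against -0.01.

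Among sarcomeric members the smallest adjusted p of a day change was that of myl3.L at stage 53, where the difference of 1.99 (SE 0.57) had an adjusted p of 0.172. The other sarcomeric members with an unadjusted p below 0.05 were actn2.L with 1.38 (adjusted p = 0.393), klhl41.L with 1.44 (adjusted p = 0.453), des.1.L with 0.95 and klhl41.S with 1.22 (both adjusted p = 0.476) and tnni1.S with 1.51 (adjusted p = 0.496). For actn2.L and des.1.L the stage 53 arrays at 5 days all lay above those at 1 day, as did 6.17% of all tested probe sets. actn2.L read 6.44, 4.64, 4.76 and 5.93 at 1 day and between 6.48 and 7.04 at 5 days. Among mixed members mustn1.L did the same, with 8.36, 7.76, 6.81 and 7.45 at 1 day and 8.56, 9.02, 8.83 and 9.09 at 5 days (1.28, adjusted p = 0.193).

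The median day change at stage 53 was 0.38 over the 12 fast probe sets and 1.27 over the 10 slow or slow and cardiac ones. At stage 57 it was 0.39 and 0.28. No member of either group was called, and the difference between the groups was not tested. With all arrays, non-muscle members were not called in any day comparison. At stage 53 the arrays at 5 days all lay below those at 1 day for myh9.L, actn1.S and the brightest probe set of myl12b.L, as for 4.93% of all probe sets. Without the 3 arrays, 3 of 12 non-muscle members were called lower and 1 of 5 mixed members higher in the stage 53 day change. Those 3 arrays are of stage 57, so the stage 53 differences themselves did not change. The share of all probe sets is not given for these counts. Calls under other settings are counted at the end.

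**Figure D5:**
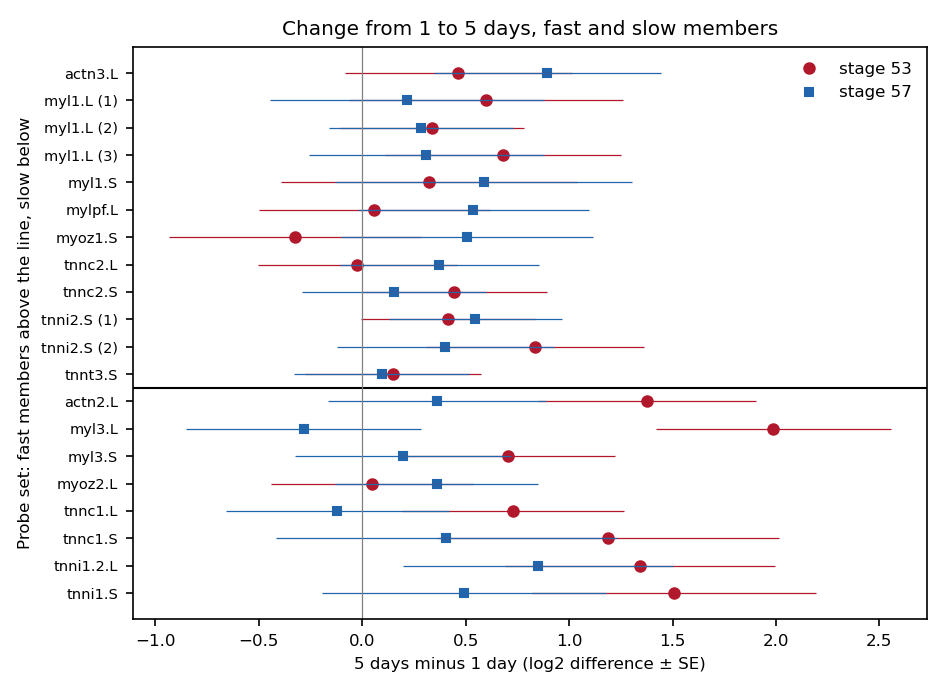
Change in log2 signal from 1 to 5 days (x, with bars of 1 SE from the limma fit) for the 12 fast probe sets above the line and the 8 tested slow or slow and cardiac ones below it, at stage 53 (circles) and stage 57 (squares). None of these changes passed, and the largest is the 1.99 of myl3.L at stage 53.

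Other genes of muscle were counted from lists, each gene by its probe set of highest mean signal; 28 of the 70 genes found on the array had several, so an uncalled gene is uncalled at that probe set. Of the 33 other tested probe sets of these genes, 13 were called on at least 1 day, a share not given here for all probe sets. As background for the list counts below, 1.56% of all tested probe sets were lower at 1 day and 3.89% at 5 days. The shares that were higher were 0.99% and 3.48%. Of 10 tested genes of the sarcomere and muscle cytoskeleton, 5 were lower at stage 53 at 1 day and 7 at 5 days, with 0 higher. They included cavin4.S, a caveolar coat protein of muscle (-5.68 and -4.46), csrp3.L, a Z-disc LIM protein (-2.68 and -2.30), apobec2.L, a muscle member of the cytidine deaminase family (-2.41 and -2.56), and the myosin chaperone unc45b.S (-2.67 and -2.47). flnc.L, filamin C, passed only at 5 days (-1.07, adjusted p = 0.0933, then -2.35, adjusted p = 0.000325). The capping protein genes capza1.L and capzb.S, which most cells use, were not called.

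Of 13 tested genes of muscle calcium handling and energy supply, 5 were lower at 1 day, and 4 were lower and 1 was higher at 5 days. The calcium store protein casq1.S differed by -3.84 and -5.59, and ocm4.4.S, of the parvalbumin family, by -4.09 and -5.04. pgam2.L, the muscle phosphoglycerate mutase (-2.15 and -2.21), and sarcalumenin, srl.L (-1.80 and -1.79), were also lower on both days, and casq2.S, the slow and cardiac calsequestrin, at 1 day alone (-2.43, then -1.18). pfkm.S, a phosphofructokinase, was the gene that was higher at 5 days (1.23, adjusted p = 0.026). The probe set used for ckm.L, muscle creatine kinase, was not called (0.66 and -0.56), but its other 2 probe sets were lower at 5 days (-3.02, adjusted p = 0.0456, and -2.51, adjusted p = 0.0402). For atp2a1.S, the fast calcium pump, neither the probe set used (0.39 and -0.11) nor the other (-2.15 and -2.92, adjusted p = 0.0557 at 5 days) was called. Of 6 tested regulators of muscle formation (myod1.S, myf5.L, myog.L, mef2d.L, pax3.L and srf.L), 0 were called on either day by limma. Their medians were -0.59 and -0.55, and none had an unadjusted p below 0.05 at 1 day, while myog.L did at 5 days (-1.80, adjusted p = 0.068). Among their other probe sets, that of myod1.L was lower at 1 day (-1.84, adjusted p = 0.0146).

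Some markers of other tissues were also lower at stage 53. Of 3 tested smooth muscle genes that are no members, tagln.L was lower on both days (-2.70 and -3.60) and acta2.L and smtn.L were not called. The summed signal of that list, in log2, ran from 9.21 to 9.71 on the stage 53 arrays and from 9.70 to 12.39 on the stage 57 arrays. Of 7 fibroblast genes, col1a1.S and col3a1.S were lower at 1 day, and those and lum.L and tnc.L at 5 days. A further probe set, for fn1.S, was lower at 5 days alone (0.51, then -1.83, adjusted p = 0.0126). The other fn1.S probe sets were not called, with 0.36 to 0.97 at 1 day and -0.55 to -0.68 at 5 days. pdgfra.L (1.64 and 0.46) and col1a2.L (-0.13 and -0.45) were not called either. Further probe sets of col3a1.S (-1.43, adjusted p = 0.0317) and tnc.L (-2.01, adjusted p = 0.00528) were lower at 5 days. That of col1a1.S was not called (-0.40 and -0.70). That list's summed signal ran from 16.25 to 17.10 at stage 53 and from 16.92 to 17.69 at stage 57.

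Of 7 cartilage genes, 1 was lower at 1 day (matn1.L, -2.94) and 1 at 5 days (matn4.L, -2.65). sox9.S differed by 1.08 at 1 day and 0.18 at 5 days and was not called. The differences of col2a1.S, col9a1.L, col9a2.L and cnmd.L were negative on both days and not called. The summed cartilage signal was 11.82 to 13.44 at stage 53 and 12.11 to 15.66 at stage 57. Of the 2 tested Schwann cell and nerve genes, sox10.L was lower at 5 days (-1.88). The other, pmp22.L, went the other way on both days (0.97 and 0.98) and was not called. Tested genes of epidermis (3), red cells (4) and endothelium (2) gave no call at the probe sets used. The endothelial sum ran from 9.43 to 10.68 at stage 53 and from 10.29 to 11.64 at stage 57. For epidermis the sum ran from 12.93 to 14.39 at stage 53 and from 13.16 to 13.82 at stage 57. Red cells gave 15.10 to 16.58 against 13.32 to 17.035. The Schwann cell and nerve sum went the other way, with 12.66 to 13.38 at stage 53 against 10.82 to 13.15. So did the limb sum, with 10.93 to 12.16 against 10.49 to 11.52. No sum was tested. Of the limb markers, pitx1.L read 10.97, hoxa11.S 8.81 and tbx4.L 6.58 at stage 53 and 1 day, the last at about the filter level. Without calls of presence none of these shows by itself that a marker was present. pitx1.L was higher at stage 53 at 5 days (1.14), as was a further probe set of hoxa11.S (1.83, adjusted p = 0.0296). The hoxa11.S probe set used was not called (0.19 and 0.70). The part of tissue makeup in the sarcomere gene differences was not tested.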

How the data were processed

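The files hold linear MAS5 signal intensities, deposited after processing by the authors, per the submitters' processing notes. Version and scaling target of MAS5 are not given in the sources used here. The mean after trimming 2% of values at each end was 1000.2 on every array, and values ran from 0.6 to 325608. Calls of presence were not used, so low signals and background were not separated. Per the labels' protocols, 1 microgram of total RNA per array was amplified with a 2-cycle kit. Gene symbols came from the platform annotation; all 69 members matched RefSeq assembly Xenopus_laevis_v10.1 by Entrez ID and 0 symbols changed.

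Intensities were log2-transformed, the 120 control probe sets were left out, and probe sets with a mean above the 25th percentile were kept. Group means of all 16 arrays were fitted in limma 3.58.1 (R 4.3.3) by lmFit and eBayes, the prior variance following mean signal. There were 5 contrasts, each Benjamini-Hochberg adjusted over 11618 probe sets, with calls at 0.05. All adjusted p-values of genes are from there. Replicate numbers only name arrays, and the number of arrays limits the precision. On simulated data for the 1 day stage comparison over 11618 probe sets, changes of 1, 2, 3 and 4 log2 units were called in 12.2%, 78.3%, 88.9% and 100% of cases. These shares cover only the changed probe sets that stayed above the filter (49, 46, 45 and 45). The simulated noise was normal and independent, with 1 spread per probe set in all groups and no arrays of high beta-actin ratio. The shares may therefore not hold for these arrays.

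Values on every array are given for the brightest tested probe set and the one with the smallest adjusted stage p in each sarcomeric role, and for the 3 brightest non-muscle members; any member called in a day comparison would have been added. The per-array values of actn2.L and mustn1.L and the summaries of other members, myh6.S among them, were chosen after their values were seen. From the lists of other muscle genes, all are counted and those of smallest p named. Listed genes were counted at their probe set of highest mean. Further probe sets of ckm.L, atp2a1.S, myod1.L, fn1.S, col1a1.S, col3a1.S, tnc.L and hoxa11.S were named after their values were seen. The members, roles, lists and alternatives were chosen with earlier results of these data known. The alternatives were quantile normalization, median centring, offsets at the 10th and 25th percentiles, testing all probe sets, filtering at the 50th percentile, a constant prior variance, only the groups compared, each array left out, the 3 arrays with a high beta-actin ratio left out, and array weights.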

Additional observations from a re-analysis of the deposited data

Results flagged for a closer look

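Within the 4 groups of the 13 members whose arrays are printed, 52 sets of 4 values were examined with Dixon's test, and 4 (7.69%) held an array far from its neighbours, where chance gives about 5%. mybpc3.S read 5.49 on replicate 3 of stage 53 at 1 day, with the nearest array at 7.18, and without it the 1 day stage difference was -2.07 and was no longer called (adjusted p = 0.0671, limma). mybpc3.S also read 8.09 on replicate 2 of stage 57 at 1 day, with the nearest array at 9.62, and without it the difference was -2.90 (adjusted p = 0.0074). acta1.S read 13.18 on replicate 1 of stage 57 at 1 day, with the nearest array at 10.43, and without it the difference was -3.54 in place of -4.29. myh9.L, the non-muscle heavy chain, read 12.94 on replicate 2 of stage 57 at 5 days, with the nearest array at 14.05, and without it the 5 day difference was -0.99 (adjusted p = 0.159). The second and last of these arrays are among the 3 with a high beta-actin ratio, and the part of that ratio in these values was not tested.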

How the results depend on the processing

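Low signals have no detection call here, so dim folds are the least certain. Sizes also moved over the alternatives in which a probe set was tested. At 1 day klhl41.L ran from -5.94 to -2.37, acta1.S from -5.62 to -3.18 and des.1.S from -5.43 to -3.85. On that day tnnc1.L ran from -4.63 to -2.75 and myl3.L from -4.18 to -2.36. At 5 days acta1.S ran from -6.14 to -4.51 and klhl41.L from -4.82 to -2.37. Of the sarcomeric calls, 22 of 24 at 1 day and 19 of 23 at 5 days were also made under every alternative in which the probe set was tested. The calls lost when 1 array was left out were mybpc3.S and tnni1.2.L at 1 day (both without replicate 3 of stage 53 at 1 day) and klhl41.S, mybpc3.S, tnni1.2.L and myoz2.L at 5 days. Counts of lower sarcomeric probe sets ran from 22 to 25 at 1 day and from 19 to 24 at 5 days when single arrays were left out, and were 12 and 11 of 14 tested with the filter at the 50th percentile. tpm2.L lost its call at 1 day with only the groups compared (-2.76) and with array weights (-2.08), and at 5 days when any of 5 single arrays was left out. The count of 0 lower non-muscle members at 5 days became 1 with quantile normalization, 2 with median centring, 1 with the 10th percentile offset, 1 with the 50th percentile filter, 3 without the 3 arrays and 4 with array weights, and ran from 0 to 3 with single arrays left out (2 without replicate 1 of stage 53 at 5 days, 3 without replicate 3 and 1 without replicate 4 of stage 57 at 1 day). In the day change at stage 53, array weights gave 2 higher sarcomeric members; 1 higher mixed member was called without the 3 arrays and 2 with array weights; and 2 lower non-muscle members were called with only the groups compared, 3 without the 3 arrays and 3 with array weights. Without the 3 arrays 7.54% of all probe sets were lower at stage 53 at 5 days, against 3.89% with all arrays. For the other counts in this paragraph the share over all probe sets is not given, so a general rise in calls was not told apart. Signs turned only for members that were never called at that day. At 1 day these were tpm3.S (-0.343 without the 3 arrays, -0.243 with array weights, -0.391 to 0.246 with single arrays left out), myh10.S (0.0755, 0.103 and -0.280 to 0.159), myh9.L (-0.0810 without the 3 arrays), the dimmest probe set of myl12b.L (-0.634 to 0.0471 with single arrays left out) and myh8.L (-0.0551 and -0.111 with the offsets, -0.676 to 0.478 with single arrays left out). At 5 days they were myh10.S (-0.0111 without the 3 arrays, -0.110 with array weights, -0.0111 to 0.602 with single arrays left out) and actn1.L (-0.183 to 0.0016 with single arrays left out). The causes were not tested. No paired analysis was possible because replicate numbers only name the arrays within a group.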
